A study of Homo sapiens with 3 samples.

Results

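The mitochondrial ribosomal proteins are the nuclear-encoded proteins whose mRNA rows carry a symbol of the form MRPL or MRPS followed by a number and, for a few, a letter. The choice was made by name alone, and it took 77 of the 16662 genes listed for this series. All 77 averaged 1 or more normalised CPM over the libraries (read counts scaled to a common library size), the filter that 13879 listed genes passed. By structural assignment 50 of the members belong to the large subunit and 26 to the small subunit. Symbols and structure differ for 3 of them: MRPS30 and MRPS18A sit in the large subunit, and MRPS36 is a component of the α-ketoglutarate dehydrogenase complex and is not counted in either subunit.

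RNA sequencing was done on H1975 cells, an established human lung adenocarcinoma line with mutant EGFR, after transfection with a small interfering RNA (siRNA). There was 1 library each for siHHLA3-1 and siHHLA3-3, the differently numbered siRNAs against HHLA3, and 1 for the control siRNA siNC, so there were no replicates. At transfection the cultures were near 70% confluency, and they then spent 6 h in serum-free medium and another 24 h with 10% serum before 1 ug of total RNA was taken for each library. The labels name the source of this cell line lung cancer tissue, and they give each library a batch of its own, so the effects of batch and siRNA cannot be told apart. The siRNA sequences are not given in the sources used here. Of 9 epithelial and lung adenocarcinoma markers 8 were listed, among them EPCAM at 614 TPM with siHHLA3-1, 551 TPM with siHHLA3-3 and 601 TPM with siNC. Some others were lower with siHHLA3-3: the lung transcription factor NKX2-1 stood at 81.0 TPM with siHHLA3-1 and 39.5 with siHHLA3-3, against 71.0 with siNC, and the keratins KRT19 at 1653 and 1131 against 1671 and KRT8 at 476 and 306 against 439. KRT18 stood at 415 and 451 against 448, and KRT7 at 1434 and 1451 against 1627. CDH1 stood at 320 and 245 against 281, and NAPSA was low, at 5.24 and 3.78 against 4.50. SFTPB was not listed. The part of these marker differences in the results below was not tested. Of 8 immune, endothelial and fibroblast markers 2 were listed: the endothelial CDH5 at 11.2 TPM with siHHLA3-1, 1.77 TPM with siHHLA3-3 and 4.47 TPM with siNC, and the fibroblast COL1A1 at 9.70, 4.32 and 4.27 TPM in the same order. HHLA3 itself stood at 1.55 normalised CPM with siHHLA3-1 and 0.735 with siHHLA3-3, against 5.99 with siNC, from 55, 20 and 192 reads. Library totals were 35069930 reads for siHHLA3-1, 26950852 for siHHLA3-3 and 32813003 for siNC. With 1 library per group every difference below describes these 3 libraries, and all intervals are 95% intervals that cover counting error only.

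Mitochondrial ribosomes translate the few proteins that mitochondrial DNA still encodes, all of them hydrophobic subunits of the respiratory chain and ATP synthase. Their rRNAs are transcribed inside the organelle, while all of their proteins are made in the cytosol from nuclear genes and imported, so assembly needs matched supply from both genomes. Many of the proteins descend from bacterial ribosomal proteins, and others were gained in mitochondria, where they surround a shortened rRNA core. Nuclear respiratory factor 1 (NRF1), ETS-family factors such as GABPA, and YY1 are known regulators of many nuclear genes for mitochondrial proteins.

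Short stretches of 3′ UTR were examined first. Every 7-base sequence found in the annotated 3′ UTRs of at least 30 genes was scanned (16348 sequences, 10490 genes that averaged 5 CPM or more), and for each siRNA the one whose carriers had the lowest standardised difference in log2 ratio to siNC was taken. The scan used the ratios described below, so the sequences are a description of those ratios. For siHHLA3-3 it was GTGAACT, which 5 of the 77 members carry (6.49%), against 12.3% of the 11784 filtered genes with an annotated 3′ UTR. MRPS27 holds it at 2 positions and the other 4 carriers at 1 each. These windows of 30 bases are shown because their genes include the 3 members with the lowest log2 ratios of siHHLA3-3 to siNC. They were read 5′ to 3′ along the transcript from GENCODE release 29 on GRCh38, with the 7-base sequence in capitals.
MRPL19, chr2:75655373-75655402, plus strand: catagtaattaaGTGAACTaagcattcatt
MRPS23, chr17:57839585-57839614, minus strand: agaagcagttatGTGAACTtttatgttagg
MRPS27, chr5:72220166-72220195, minus strand: catgaggccaagGTGAACTgtgcatcctga
MRPS27, chr5:72220010-72220039, minus strand: ttcaggacaggaGTGAACTcaaggccatga
MRPL1, chr4:77952703-77952732, plus strand: tcatacttgaaaGTGAACTttaacattgaa
MRPS16, chr10:73248977-73249006, minus strand: gccgatgctgcaGTGAACTgtgattgttcc
The site of MRPL19 lies in 1 of its 3 transcripts with an annotated 3′ UTR, that of MRPS23 in 1 of 2, both of MRPS27 in 2 of 5, that of MRPL1 in its single one and that of MRPS16 in both of its 2. In the 3′ UTR the site began at base 100 of 2575 in MRPL19, 181 of 5002 in MRPS23 and 108 of 183 in MRPL1. The sites of MRPS27 began at bases 726 and 882 of 1500, and that of MRPS16 at base 1858 of 2009.

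For siHHLA3-1 the leading sequence was CAGAATG, carried by 4 of the 77 members (5.19%) and by 18.1% of the filtered genes. MRPL19 is the one member that carries both sequences, and the sites of the 4 are shown for the contrast with those above.
MRPL19, chr2:75655527-75655556, plus strand: tcagagcatcacCAGAATGgtctttaatga
MRPL34, chr19:17306706-17306735, plus strand: ctgtaaatatttCAGAATGtatctctccaa
MRPL17, chr11:6681253-6681282, minus strand: gaaatccggcttCAGAATGtgagaagctgg
MRPS18C, chr4:83461472-83461501, plus strand: attaaaactgttCAGAATGattttccaact

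The promoters were searched for the cores of 3 known regulators of mitochondrial genes, with no test of the differences in share. RefSeq sequences on GRCh38.p14, from 250 bases before to 50 bases after the annotated start, were found for 68 of the 77 members and were searched on both strands. The YY1 core AAGATGG was present in 23 of the 68 (33.8%), against 7.62% of 9989 filtered genes and 6.06% of all 27305 promoters. It was in 16 of 43 large-subunit and 7 of 25 small-subunit promoters, and in 14.5% of 62 promoters of cytosolic ribosomal proteins. Of its 24 matches in members, 20 read as given on the gene's own strand, and 16 of those began within the 50 bases after the start. The core holds ATG, the letters of a translation start codon, and whether these matches lie at start codons was not examined. The ETS core CCGGAAG was present in 28 of the 68 (41.2%), against 19.9% of filtered genes and 10.7% of all promoters, and in 35.5% of cytosolic ribosomal protein promoters. Of its 37 matches 5 began after the start. The NRF1 core GCGCATG was present in 7 of the 68 (10.3%), against 7.70% of filtered genes and 4.67% of all promoters. Its letters overlap their own reverse complement CATGCGC, so 1 palindromic stretch can match on both strands, and its 10 matches all began before the start. A match describes letters and is not a bound site.

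Windows around the YY1 core just after the start are shown for 3 large-subunit and 3 small-subunit proteins among those described below. They are printed 5′ to 3′ on the gene's strand with the core in capitals.
MRPL11, chr11:66438807-66438836, minus strand: gacctctggcccAAGATGGtggcgcccaga
MRPL45, chr17:38297169-38297198, plus strand: ctttgcgggaacAAGATGGcagcccccata
MRPS30, chr5:44808948-44808977, plus strand: gaatcgcgggcaAAGATGGcggcggccagg
MRPS27, chr5:72320207-72320236, minus strand: ttggtacgctccAAGATGGctgcctccata
MRPS18B, chr6:30617851-30617880, plus strand: tgggcgtacgtcAAGATGGcggcgtctgta
MRPS24, chr7:43869481-43869510, minus strand: tccgcttggcccAAGATGGcggcctccgtg
The ratios to siNC of members with and without a motif were set side by side as medians, with no test. The median log2 ratio of members with the YY1 core was -0.24 with siHHLA3-1 and -0.13 with siHHLA3-3, against -0.19 and -0.12 for those without it. Members with the ETS core had -0.21 and -0.13, against -0.23 and -0.11 without it. The 7 members with the NRF1 core had -0.14 and -0.06, against -0.22 and -0.14 for the 61 without it.

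The mRNAs of the mitochondrial ribosomal proteins stood, by their median, above the upper quartile of all filtered genes in every library. On the deposited TPM scale, which is per length, their median was 59.6 with siHHLA3-1, 65.4 with siHHLA3-3 and 68.1 with siNC, against 18.7, 18.7 and 18.3 over all filtered genes. The upper quartiles over all filtered genes were 47.5, 47.9 and 46.7 TPM in the same order. The 78 cytosolic ribosomal proteins had medians of 417, 463 and 466 TPM in the same order. The members took 0.332% of the reads with siHHLA3-1, 0.339% with siHHLA3-3 and 0.375% with siNC. The quartiles ran from 30.4 to 97.6 TPM, from 29.5 to 107 TPM and from 34.7 to 112 TPM. Above 100 TPM stood 15 members with siHHLA3-1, 20 with siHHLA3-3 and 24 with siNC, and below 10 TPM stood 8, 8 and 7.

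Large-subunit mRNAs stood above small-subunit mRNAs by the median in each library. The median of the large subunit was 66.6 TPM with siHHLA3-1, 74.7 with siHHLA3-3 and 73.1 with siNC, and that of the small subunit was 36.2, 38.7 and 41.2 TPM. By the mean the gap was smaller: the large subunit stood 1.18, 1.16 and 1.19 times as high as the small subunit. Summed over members, large-subunit TPM were 2.26, 2.23 and 2.28 times small-subunit TPM, which also reflects the larger number of large-subunit proteins.

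The order of the members was nearly the same in the 3 libraries. Of the 10 highest members 7 were shared by all libraries, and of the 10 lowest 8 were. Against siNC the median member moved 3 places with either siRNA, the largest move being 9 places for MRPL54 with siHHLA3-1 and 13 for MRPL47 with siHHLA3-3. MRPL41, a mitochondria-specific protein of the large subunit, was the highest, at 269 TPM with siHHLA3-1, 276 with siHHLA3-3 and 276 with siNC. MRPL14, whose bacterial counterpart lies at the subunit interface, followed in siNC with 197, 215 and 223 TPM. The next in siNC were MRPS34, a mitochondria-specific small-subunit protein, with 161, 235 and 222 TPM, MRPS26, of the same class, with 188, 196 and 212 TPM, and MRPL11, of the stalk base where translation factors bind, with 157, 171 and 198 TPM.

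The 5 lowest members in siNC lay below 10 TPM in every library. MRPL2, a conserved protein near the peptidyl transferase centre, was listed at 1.89 TPM with siHHLA3-1, 2.00 with siHHLA3-3 and 1.87 with siNC, from 41, 33 and 38 reads. MRPL38 stood at 2.10, 2.20 and 2.36 TPM, MRPL46 at 1.80, 1.62 and 2.38 TPM, MRPS24 at 3.73, 3.63 and 2.21 TPM and MRPS18C at 6.27, 6.42 and 6.14 TPM. Low read counts often went with shared exons. In GENCODE release 29, 13 members share at least 20% of their exon bases with another gene, and they include 7 of the 10 members with fewer than 500 reads in siNC and 6 of the other 67. MRPL2 and MRPL46, also among the 5 lowest, are under this limit at 14.7% and 11.3%. MRPL12 shares 68.2% of its exon bases, MRPS18A 47.0%, MRPL38 41.1%, MRPS18C 40.2% and MRPS24 23.2%, the last with a read-through transcript of URGCP and MRPS24, and the levels of such members are uncertain because no source used here gives the handling of shared reads. Their part in these levels was not tested.

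**Figure D1:**
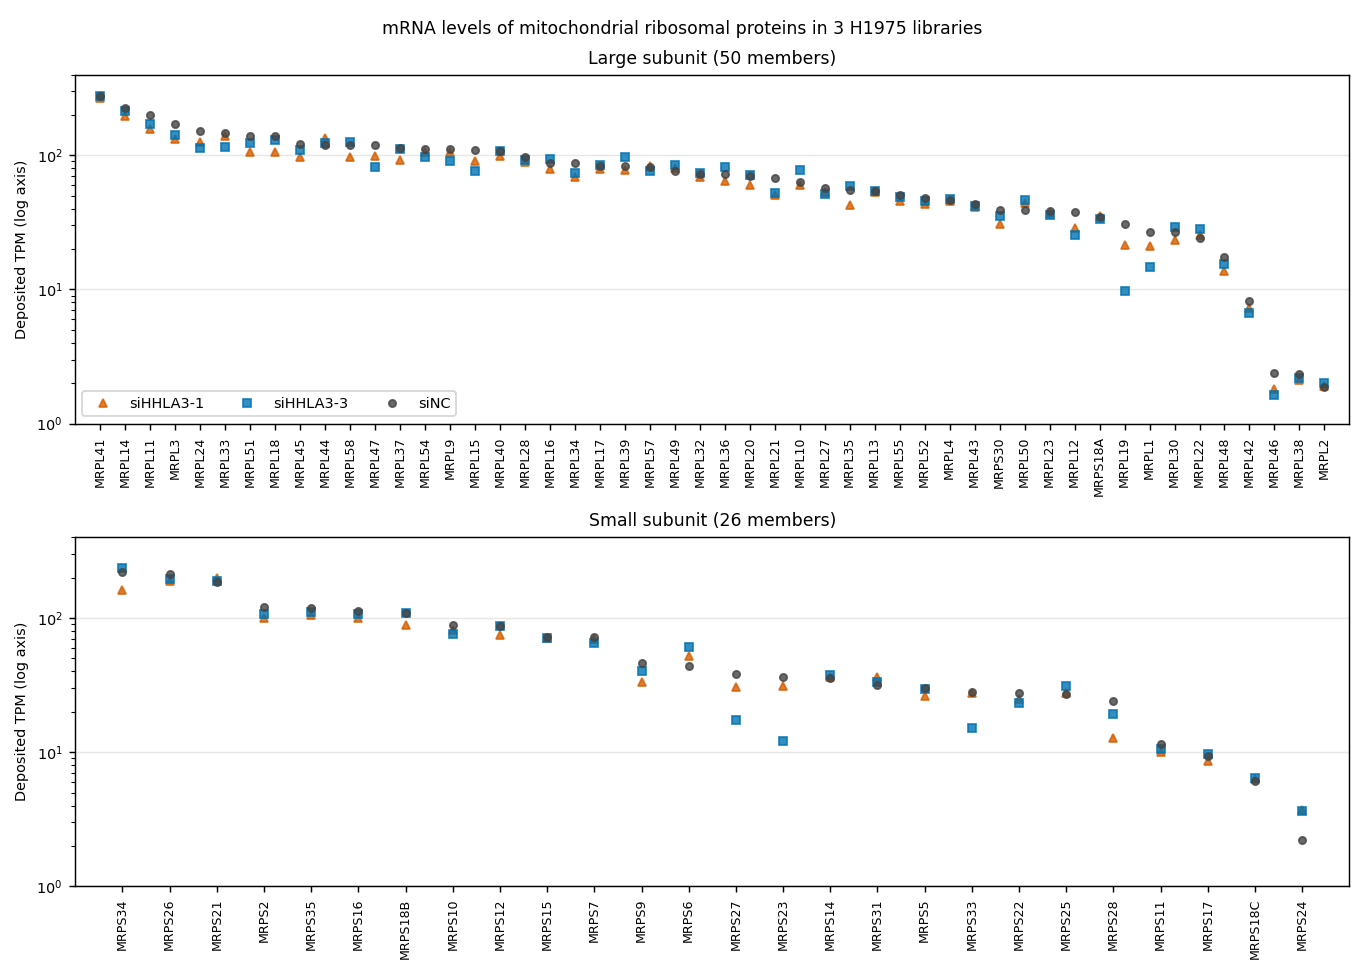
Deposited TPM of 50 large-subunit members (upper panel) and 26 small-subunit members (lower panel) on a log axis, with siHHLA3-1, siHHLA3-3 and siNC as triangles, squares and circles and members ordered by siNC. The 3 symbols of a member lie close together along the whole range from MRPL41 down to MRPL2, except for a few squares such as those of MRPL19, MRPS27, MRPS23 and MRPS33 and the triangle of MRPS28.

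With siHHLA3-1 most members stood slightly below siNC, and the medians of the large and small subunits were the same. Ratios are log2 of (normalised CPM + 1) over the same in siNC, which understates the differences of low genes. The median over the 77 members was -0.21, with quartiles of -0.35 and -0.10, against -0.01 over all filtered genes and -0.04 over the 2537 other genes of the members' middle CPM range. Below 0 were 68 of the 77 members, against 51.8% of all filtered genes. A gene was counted as lower at a log2 ratio of -0.32 or less and as higher at 0.32 or more. Counted as lower were 24 members, against 13.5% of all filtered genes, and 1 was counted as higher, against 15.0%. On the deposited FPKM and TPM scales, also with 1 added, 12 and 15 members were lower by this limit, as were 1087 and 1399 of the 13879 filtered genes. The added 1 shrinks ratios more on the FPKM scale, where values are smaller (MRPL41 at 78.8 FPKM and 276 TPM with siNC). Of all genes past it 47.4% were lower with siHHLA3-1, against 36.7% when scaled by library totals alone, and with siHHLA3-3 54.5% were, against 44.5%. At 1.5-fold 1 member was lower, where 3.34% of all genes were, and none was 2-fold lower, where 0.382% were. The summed level of the members was 3278 normalised CPM with siHHLA3-1 and 3831 with siNC, a ratio of 0.856. In bulk RNA fewer cells with these mRNAs and less of them per cell cannot be told apart.

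Both subunits had a median of -0.21 with siHHLA3-1, and their difference was 0.00. Below 0 were 46 of 50 large-subunit and 22 of 26 small-subunit members, and counted as lower were 18 and 6. Proteins with bacterial counterparts had medians of -0.24 in the large and -0.18 in the small subunit, and mitochondria-specific ones had -0.17 and -0.22.

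The lowest log2 ratio with siHHLA3-1 was that of MRPS28, the small-subunit protein that corresponds to bacterial S1. It stood at 6.45 normalised CPM with siHHLA3-1 and 9.77 with siHHLA3-3, against 12.7 with siNC, from 229, 266 and 409 reads. It was 1.98 times lower with siHHLA3-1 than with siNC (counting interval 1.68 to 2.33), a log2 ratio of -0.88. The gene shares 35.8% of its exon bases with another annotated gene on the same strand. MRPL19, a large-subunit protein whose bacterial counterpart lies at the subunit interface, came next, with a log2 ratio of -0.55 (1.47 times lower, 1.39 to 1.57).

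Others near the low end with siHHLA3-1 were spread over both subunits. MRPS34 stood at 49.4 normalised CPM with siHHLA3-1 against 70.9 with siNC (log2 ratio -0.51), and MRPS9, a conserved protein of the small-subunit head, at 17.2 against 24.6 (-0.49). MRPL21, a conserved large-subunit protein, stood at 40.4 against 56.2 (-0.47) and MRPL51, a mitochondria-specific one, at 41.2 against 56.5 (-0.45). At this depth the counting interval of a member's ratio extends a median of 0.10 to either side on the log2 scale, so these 4 differ from siNC by more than counting error but hardly from each other.

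The high end with siHHLA3-1 held few members. MRPS24 stood at 2.73 normalised CPM with siHHLA3-1 and 2.64 with siHHLA3-3, against 1.68 with siNC, from only 97, 72 and 54 reads, with log2 ratios of 0.48 and 0.44. It was the 1 member counted as higher with siHHLA3-1. MRPS6, a conserved small-subunit protein whose gene overlaps SLC5A3, followed at 62.8 and 72.8 against 54.96 normalised CPM (0.19 and 0.40). MRPS31, MRPS36, MRPL50 and MRPL44, a protein with a ribonuclease III fold, had log2 ratios between 0.11 and 0.13 with siHHLA3-1, close to the width of the counting interval.

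With siHHLA3-3 the median member again stood below siNC, by less, while a few members stood much lower. The median was -0.12, with quartiles of -0.28 and -0.02, against -0.01 over all filtered genes and -0.02 over the other genes of the same CPM range. On the deposited FPKM and TPM scales it was -0.07 on each, against 0.03 and 0.05 over all filtered genes. Below 0 were 60 of the 77 members, against 51.5% of all filtered genes. Counted as lower were 16 of the 77 members, against 15.1% of all filtered genes, and counted as higher were 2, against 12.7%, so the share counted as lower was not far from that of all genes. At 1.5-fold 6 members were lower, where 5.57% of all genes were, and 3 were 2-fold lower, where 1.48% were. The summed level was 3352 normalised CPM with siHHLA3-3 and 3831 with siNC, a ratio of 0.875. The comparison shares its siNC library with that of siHHLA3-1, so the direction of a member in one is not independent of its direction in the other.

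The subunits did not separate with siHHLA3-3 either. The median was -0.13 for the large and -0.11 for the small subunit, a difference of -0.02. Below 0 were 39 of 50 large-subunit and 20 of 26 small-subunit members, counted as lower were 12 and 4, and counted as higher were 0 and 2. Conserved members had medians of -0.14 in the large and -0.09 in the small subunit, and mitochondria-specific ones had -0.11 and -0.16.

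**Figure D2:**
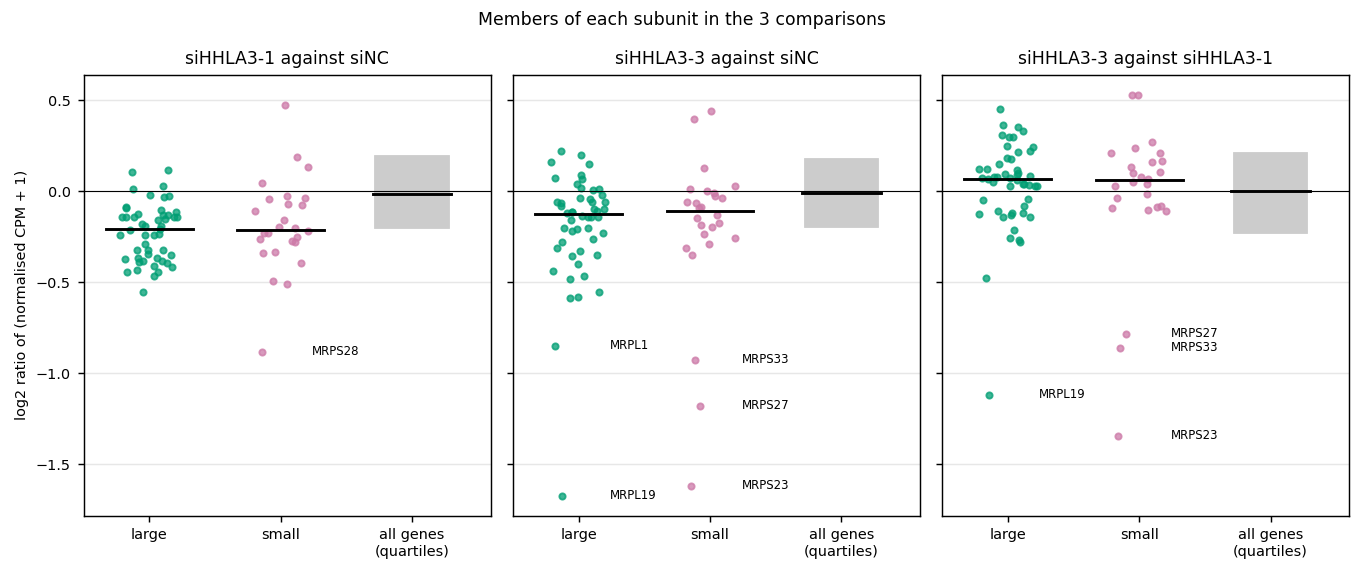
Log2 ratio of (normalised CPM + 1) for each large-subunit and small-subunit member (points, with a bar at the median) and the median and quartiles of all 13879 filtered genes (grey box), for siHHLA3-1 against siNC, siHHLA3-3 against siNC and siHHLA3-3 against siHHLA3-1. Both subunits centre at -0.21 in the first panel and at -0.13 and -0.11 in the second, and a tail of MRPL19, MRPS23, MRPS27, MRPS33 and MRPL1 lies apart below the others in the second.

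The tail with siHHLA3-3 was led by MRPL19. It stood at 54.1 normalised CPM with siHHLA3-1 and 24.4 with siHHLA3-3, against 79.8 with siNC, from 1922, 663 and 2560 reads. It was 3.28 times lower with siHHLA3-3 than with siNC (counting interval 3.01 to 3.57), a log2 ratio of -1.67, and 2.22 times lower than with siHHLA3-1 (2.03 to 2.43). This was the member with the lowest log2 ratio to siNC with siHHLA3-3 and the second lowest with siHHLA3-1.

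MRPS23, a mitochondria-specific protein of the small subunit, stood at 56.1 normalised CPM with siHHLA3-1 and 21.5 with siHHLA3-3, against 68.1 with siNC. It was 3.17 times lower with siHHLA3-3 (2.89 to 3.48; log2 ratio -1.62), against a log2 ratio of -0.28 with siHHLA3-1. MRPS27, a small-subunit protein with pentatricopeptide repeats, the fold of many organellar RNA-binding proteins, stood at 55.6 and 31.8 against 73.4 normalised CPM and was 2.30 times lower with siHHLA3-3 (2.13 to 2.49; -1.18). These 3 are the members more than 2-fold below siNC in any comparison.

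MRPS33, another mitochondria-specific small-subunit protein, stood at 40.9 normalised CPM with siHHLA3-1 and 22.1 with siHHLA3-3, against 43.0 with siNC. It was 1.94 times lower with siHHLA3-3 (1.77 to 2.14; log2 ratio -0.93), while with siHHLA3-1 its counting interval held equality (0.975 to 1.13 times lower). MRPL1, the protein of the L1 stalk that moves with the tRNA leaving the ribosome, stood at 9.63 and 6.65 against 12.8 normalised CPM and was 1.92 times lower with siHHLA3-3 (1.61 to 2.30; -0.85). MRPL47 followed with a log2 ratio of -0.59, at 37.8 and 31.3 against 47.5 normalised CPM.

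The GTGAACT sequence went with this tail. Its 5 carriers had a median log2 ratio of -1.18 with siHHLA3-3, from -1.67 to -0.13, and the 72 other members had -0.11, from -0.93 to 0.44. At least 1.5-fold lower were 4 of the 5 carriers and 2 of the 72 others, and 2-fold lower were 3 of 5 and 0 of 72. With siHHLA3-1 the same carriers ranged from -0.55 to -0.23, with a median of -0.37, against -0.19 for the others. Over all filtered genes searched, the 1450 carriers had a median of -0.19 with siHHLA3-3 and the 10334 others 0.00. At least 1.5-fold lower were 307 of those carriers and 411 of the others, and 2-fold lower were 125 and 73. MRPS16, a conserved small-subunit protein brought in only because it carries the sequence, stood at 78.4 normalised CPM with siHHLA3-1 and 84.1 with siHHLA3-3 against 92.0 with siNC (-0.23 and -0.13). MRPS33 and MRPL47 do not carry the sequence in an annotated 3′ UTR. The part of the sequence in these values was not tested.

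CAGAATG did not mark a tail in the siHHLA3-1 library. Its 4 carriers had a median log2 ratio of -0.26 with siHHLA3-1, from -0.55 for MRPL19 to -0.03 for MRPS18C, against -0.21 for the 73 other members. Counted as lower were 2 of the 4 and 22 of the 73, and 1.5-fold lower were 0 and 1. Over all filtered genes searched, 169 of 2130 carriers and 256 of 9654 others were 1.5-fold lower with siHHLA3-1, and the medians were -0.09 and -0.01.

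**Figure D3:**
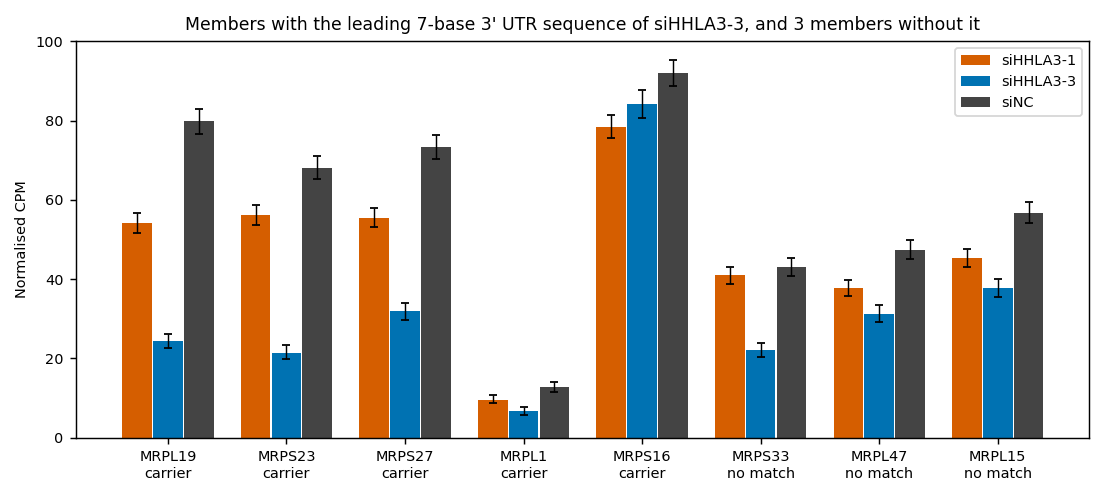
Normalised CPM with exact 95% counting intervals in siHHLA3-1, siHHLA3-3 and siNC for the 5 members that carry GTGAACT in an annotated 3′ UTR and for MRPS33, MRPL47 and MRPL15, which do not and were among the lowest others with siHHLA3-3. In MRPL19, MRPS23, MRPS27 and MRPL1 the siHHLA3-3 bar is well below both others, in MRPS16 it lies between them, and in MRPS33, without the sequence, it is also well below.

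Counted as lower with each siRNA were 10 of the 77 members, with MRPL19, MRPS27, MRPL1, MRPL47 and MRPS28 among them. The share of all filtered genes lower with each siRNA was not computed, so this count has no background beside it. Both comparisons also use the same siNC library, so this count is not read as a result about the members. The others are given here. MRPL3, which reaches toward the peptidyl transferase centre, stood at 100 normalised CPM with siHHLA3-1 and 108 with siHHLA3-3, against 136 with siNC (log2 ratios of -0.43 and -0.33). MRPL21 stood at 40.4 and 41.2 against 56.2 (-0.47 and -0.44), and MRPL24, a conserved protein near the exit tunnel, at 59.7 and 54.0 against 74.9 (-0.32 and -0.47). MRPL12 stood at 8.08 and 7.24 against 11.1 (-0.41 and -0.55) and MRPL46 at 3.24 and 2.90 against 4.46 (-0.36 and -0.48), both on few reads. MRPL15, a conserved protein of the large-subunit core, had -0.321 with siHHLA3-1, just short of the limit of -0.322, and -0.58 with siHHLA3-3.

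The high end with siHHLA3-3 was as thin as with siHHLA3-1. After MRPS24 and MRPS6 the highest log2 ratios were 0.22 for MRPL10, 0.20 for MRPL50, 0.16 for MRPL39 and 0.15 for MRPL22, a protein that lines the exit tunnel. MRPL39 stood at 26.2 normalised CPM with siHHLA3-1 and 32.5 with siHHLA3-3, against 28.96 with siNC.

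The stalk proteins, which recruit the translation factors, differed among themselves. MRPL11 stood at 112 normalised CPM with siHHLA3-1 and 121 with siHHLA3-3, against 147 with siNC (log2 ratios of -0.40 and -0.28). MRPL10, which anchors the copies of MRPL12, stood at 46.4 and 59.9 against 51.3 (-0.14 and 0.22). MRPL12 had -0.41 and -0.55, so the pair of MRPL10 and MRPL12 stood on opposite sides of siNC with siHHLA3-3. The level of MRPL12 is uncertain, with 68.2% of its exon bases shared and 287, 197 and 355 reads.

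MRPL45, which tethers the ribosome to the inner membrane, stood at 46.7 normalised CPM with siHHLA3-1 and 51.9 with siHHLA3-3, against 60.4 with siNC (-0.37 and -0.22). MRPS12, at the decoding centre, stood at 36.8 and 42.7 against 44.8 (-0.27 and -0.07). Among the 3 paralogs of bacterial S18, MRPS18A had log2 ratios of -0.03 and -0.11, MRPS18B -0.33 and -0.06, and MRPS18C -0.03 and 0.00, so only MRPS18B with siHHLA3-1 lay beyond counting error in this trio. MRPS30, a large-subunit protein in spite of its symbol, stood at 53.7 and 61.0 against 70.2 (-0.38 and -0.20). MRPS36, outside the ribosome, stood at 30.6 and 26.7 against 28.1 (0.12 and -0.07).

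Set against each other, the siHHLA3 libraries differed for a handful of members. The median log2 ratio of siHHLA3-3 against siHHLA3-1 was 0.07, against 0.00 over all filtered genes, and 50 of 77 members lay above 0, where 50.4% of all filtered genes did, and 27 below it, where 49.6% did. Counted as lower with siHHLA3-3 were 5 members, against 18.3% of all genes, and as higher 6, against 14.9%. The median was 0.07 for the large and 0.06 for the small subunit, a difference of 0.01. The summed level was 3352 normalised CPM with siHHLA3-3 and 3278 with siHHLA3-1, a ratio of 1.02.

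Against siHHLA3-1 the lowest log2 ratios of siHHLA3-3 were -1.34 for MRPS23, -1.12 for MRPL19, -0.86 for MRPS33, -0.78 for MRPS27 and -0.48 for MRPL1, and the next was -0.28 for MRPL33. The highest were 0.53 for MRPS28, 0.53 for MRPS34 and 0.45 for MRPL35, followed by 0.36 for MRPL10, 0.35 for MRPL58, a peptidyl-tRNA hydrolase built into the large subunit, and 0.33 for MRPL36. MRPS34 stood at 71.6 normalised CPM with siHHLA3-3 and 49.4 with siHHLA3-1, and at 70.9 with siNC. MRPL35 stood at 63.2 with siHHLA3-3 and 46.0 with siHHLA3-1, and at 61.6 with siNC, so both matched siNC within counting error in the siHHLA3-3 library.

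The 5 mitoribosomal proteins with other symbols lay in the range of the members. DAP3, a GTP-binding protein of the small subunit, had -0.21 with siHHLA3-1 and 0.06 with siHHLA3-3 as log2 ratios to siNC, and PTCD3 had -0.16 and 0.12. CHCHD1 had -0.31 and -0.24, AURKAIP1 -0.31 and -0.16, and GADD45GIP1, the large-subunit protein of the 5, had -0.23 and -0.54.

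Other genes of the same machinery were taken as lists. The median of the cytosolic ribosomal proteins (78) was -0.21 with siHHLA3-1 and -0.09 with siHHLA3-3, close to those of the mitochondrial ones, with 74 and 65 below 0. They held no tail: 7 and 0 were counted as lower, and none was 1.5-fold lower with either siRNA. Nuclear-encoded subunits of oxidative phosphorylation (57) had medians of -0.15 and -0.18, with 53 and 54 below 0. Counted as lower were 5 and 9 of them, and as higher 1 and 0. Their lowest was NDUFB5 of complex I, at 20.02 normalised CPM with siHHLA3-1 and 7.57 with siHHLA3-3 against 22.3 with siNC (-0.15 and -1.44), followed by ATP5F1D of ATP synthase (-0.32 and -0.61) and COX5A of cytochrome c oxidase (-0.13 and -0.61). NDUFA13 of complex I had 0.35 and 0.27.

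Genes for mitoribosome assembly and rRNA modification (29) centred at -0.13 with siHHLA3-1 and at -0.05 with siHHLA3-3, with 23 and 17 below 0, 5 and 4 counted as lower and none as higher. The rRNA methyltransferase TFB1M stood at 5.10 and 7.49 normalised CPM against 10.1 with siNC (-0.86 and -0.39), and METTL15, another methyltransferase of the small-subunit rRNA, had -0.57 and -0.22. The RNA-binding protein GRSF1 had -0.38 and -0.36, and MTERF3 had -0.28 and -0.38. Mitochondrial translation factors (17) had medians of -0.14 and -0.01, with 12 and 9 below 0 and 3 and 2 counted as lower. The release factor MTRF1L had -0.45 and -0.44, the elongation factor GUF1 -0.37 and -0.20, and the initiation factor MTIF2 -0.20 and -0.29. The elongation factor TSFM had 0.31 and 0.31, on only 44 reads with siHHLA3-1 and 34 with siHHLA3-3, against 26 with siNC.

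Genes for mitochondrial transcription and DNA maintenance (18) centred at -0.10 with siHHLA3-1 and at 0.04 with siHHLA3-3, with 14 and 6 below 0. Counted as lower were 3 and 1, and as higher 1 and 2. PNPT1, the polynucleotide phosphorylase, stood at 283 and 228 normalised CPM against 180 with siNC (0.65 and 0.34). The packaging factor TFAM had -0.40 and -0.50, RNASEH1 -0.59 and -0.28 and the tRNA-processing ELAC2 -0.33 and -0.22.

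The rRNAs and proteins encoded in mitochondrial DNA (15) centred at -0.03 with siHHLA3-1 and at -0.13 with siHHLA3-3, with 12 and 11 below 0, none counted as lower and 0 and 1 as higher. MT-RNR2, the rRNA of the large subunit, stood at 1205 and 1291 normalised CPM against 1031 with siNC (0.22 and 0.32). MT-RNR1, that of the small subunit, had -0.01 and -0.08. With siNC these rRNA rows were listed at only 2262 and 436 TPM, against a median of 9693 TPM over the 15. Whether they reflect the rRNA levels of the cells was not tested, so no imbalance between the subunits is read from them. MT-ND4L had -0.14 and -0.30, MT-ATP6 -0.22 and -0.19, and MT-ATP8 -0.03 and -0.29. The 9 listed regulators of mitochondrial genes centred at -0.11 and 0.15, with 6 and 3 below 0, 3 and 0 counted as lower and 1 and 1 as higher. Among them NRF1 had -0.46 and -0.31, ATF5 0.49 and 0.20, the coactivator PPARGC1B -0.39 and -0.28, and MYC -0.09 and 0.55.

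**Figure D4:**
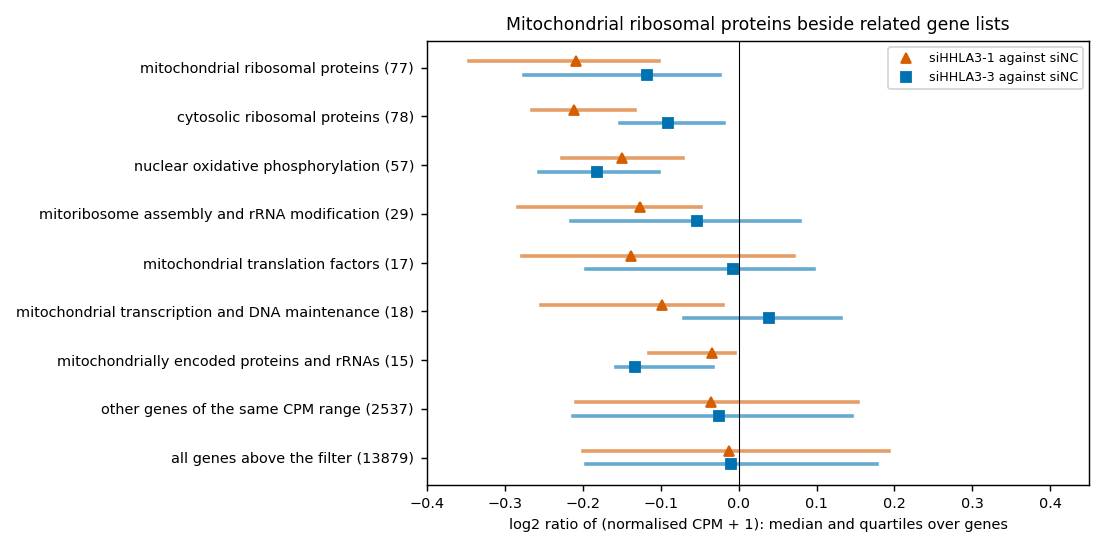
Median (symbol) and quartiles (line) of the log2 ratio of (normalised CPM + 1) to siNC for the mitochondrial ribosomal proteins, 6 related lists, the other genes of the members' CPM range and all filtered genes, with siHHLA3-1 as triangles and siHHLA3-3 as squares. The mitochondrial and cytosolic ribosomal proteins share a median of -0.21 with siHHLA3-1, and all filtered genes centre at -0.01 with either siRNA.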

How the data were processed

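Total RNA of H1975 cells was sequenced in 1 library per siRNA. The authors deposited read counts per gene, with CPM, FPKM and TPM for the same 3 libraries. The deposited counts are whole numbers and not normalised. Per the file headers, the deposited CPM are scaled to the library total and the deposited FPKM and TPM also to gene length. The submitters' processing notes name hg19, HISAT2, HISAT, TopHat2 and Bowtie2 without versions. The counting program, the annotation and the use of strand are not given in the sources used here. Sums over listed genes left 0.355% (siHHLA3-1), 0.325% (siHHLA3-3) and 0.305% (siNC) of the library totals unlisted.

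Counts were scaled with TMM factors (1.01, 1.01 and 0.978 in that order) from edgeR 4.0.16 in R 4.3.3. Ratios used normalised CPM + 1, and genes that averaged 1 CPM or more were kept. Folds given as times are ratios without the added 1, with exact 95% binomial counting intervals, while genes counted as lower or higher (log2 0.32, which is 1.25-fold, and 1.5-fold and 2-fold) are on the log2(CPM + 1) scale. With 1 library per group no test was made. Calculations used pandas 2.3.3, scipy 1.17.1 and numpy 2.4.6 under Python 3.11.15, and the ratio and sequence steps were tested on simulated data. The middle CPM range of the members is 29.4 to 58.6.

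Named are HHLA3; the 5 highest and 5 lowest members by TPM in siNC; the 6 lowest and 6 highest ratios of each comparison; members 1.25-fold from siNC in the same direction with each siRNA; members of known special role; and up to 4 genes per list by size of the mean ratio. MRPS16, MRPL15, MRPL54, MT-RNR1 and the 5 proteins with other symbols fall outside this rule and were added with their values known. The members and lists were chosen with earlier results of these data known. Subunits were assigned from general knowledge of the structure. Of the members, 77 were matched in GENCODE release 29 by identifier, and positions are on GRCh38, not the build of the processing notes. Alternatives were DESeq2 1.42.0 size factors, library totals, 0.1 as pseudocount, all listed genes, only genes averaging 5 CPM, deposited TPM or FPKM, a length and GC trend removed, folds of 1.5 and 2, subunits by symbol letter, and other member sets.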

Additional observations from a re-analysis of the deposited data

How the results depend on the processing

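Under 15 alternative settings 141 values stayed close, meaning within 1.5 times for a count and, for a median, within the typical counting interval of a member's ratio (0.10 with siHHLA3-1 and 0.11 in the other comparisons, log2), 15 moved, and no median beyond that width changed sign. Some of the 141 were fixed in advance. Every member passes the 1 CPM filter, so leaving it out could change no member value. Mean large over mean small level has to be the same in FPKM and TPM within a library. The reported large minus small differences were smaller than the counting interval width of a member's ratio. That width does not measure the uncertainty of a median or of a difference between medians. The sign of these differences was not stable. For siHHLA3-3 against siNC, -0.02 became 0.08 without members overlapping another gene and 0.02 without those sharing exons. The siHHLA3-3 median of -0.12 became -0.07 with deposited TPM or FPKM. The median over all filtered genes went from -0.01 to 0.05 with TPM and 0.03 with FPKM. For siHHLA3-1 against siNC, the 24 members counted as lower became 12 with deposited FPKM, 15 with deposited TPM, 1 at 1.5-fold and 0 at 2-fold. Of all filtered genes 1875 were lower with TMM scaling, 1087 with deposited FPKM and 1399 with deposited TPM. Each of these scales had 1 added, which shrinks the ratios of the smaller FPKM values more. For siHHLA3-3 against siNC, the 16 became 6 at 1.5-fold and 3 at 2-fold. For siHHLA3-3 against siHHLA3-1, the 5 became 2 at 2-fold and 1 without carriers of either 7-base sequence. Leaving out the 48 members whose span overlaps another gene left 29: counted as lower were then 8 with siHHLA3-1, 5 with siHHLA3-3 and 2 in siHHLA3-3 against siHHLA3-1, below 0 were 25, 20 and 11, and the large minus small median of siHHLA3-3 against siHHLA3-1 was 0.18 on the log2 scale. Leaving out carriers of the 7-base sequences, or members with 20% of exon bases shared, was chosen after seeing the data. Of all genes counted as lower or higher, 47.4% were lower with siHHLA3-1 and 54.5% with siHHLA3-3, with TMM scaling, against 36.7% and 44.5% with library totals and 35.2% and 41.2% with deposited TPM. No paired analysis was possible because each group has 1 library, and for the same reason no replicate could be left out. Counting error limits members with few reads such as MRPL2, MRPL38, MRPS24 and MRPL46.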

Other observations

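Some rows carry the name of a mitochondrial ribosomal protein gene but are no members. The pseudogene MRPL3P1 had 62 reads with siHHLA3-1 and 45 with siHHLA3-3, against 101 with siNC, with log2 ratios of -0.60 and -0.65, beside -0.43 and -0.33 for MRPL3, and reads of such copies may not be separable. MRPL20-AS1 had 554 and 554 reads against 541 (-0.11 and 0.26). MRPL45P2 had 119 and 104 against 110 (-0.03 and 0.12). Some members overlap genes that are not of the mitochondrion, and without the strand of counting their reads cannot be told apart. ACTL6A, a chromatin remodelling subunit whose gene overlaps MRPL47, had -1.06 with siHHLA3-1 and -0.07 with siHHLA3-3 on the log2 scale, where MRPL47 had -0.32 and -0.59. NCAPD2, a condensin subunit whose gene overlaps MRPL51, had -0.58 and -0.30, where MRPL51 had -0.45 and -0.23. These pairs were chosen after their values were seen.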
